A study of Mus musculus with 6 samples.

Results

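Naive and stem-like T cells share a set of marker genes, of which 9 were followed in CD8+ T cells from mouse spleen: Tcf7, Lef1, Bach2, Foxo1, Id3, Satb1, Dapl1, Rapgef4 and Igfbp4. They were chosen by name, with earlier results of these data known, and all 9 were found among the 26181 genes of the deposited table. The cells came from wild-type C57BL/6 mice that were 6 weeks old when feeding began and then ate 1 of 2 diets for 7 weeks. One group is labelled ND. The other is labelled CDAHFD, the usual short name of an amino acid-defined, high-fat feed that lacks choline, and serves as a model of metabolic dysfunction-associated steatohepatitis. Each diet had 3 libraries made from total RNA, with 25314988 to 28067393 reads assigned to genes. A whole-RNA kit and an mRNA kit are both named in the labels, without word of which library was made with which, and the part of the kit in the differences between the diets was not tested. How the CD8+ T cells were isolated, and how pure they were, is not given in the sources used here. Nor do the labels say that the libraries of a diet came from separate mice, so every p-value here rests on the spread among these libraries, which may be technical.

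Naive CD8+ T cells are kept quiescent, long-lived and able to divide by a small set of transcription factors. TCF1 (encoded by Tcf7) and LEF1 are related DNA-binding proteins that hold naive identity and the self-renewal of memory cells. FOXO1 drives genes of survival and lymph node homing, BACH2 restrains effector genes, SATB1 organises chromatin from the thymus onwards, and ID3 blocks E proteins and marks memory precursors. Dapl1, Rapgef4 and Igfbp4 are not transcription factor genes, and their messages are used as markers of the naive state. On activation and effector differentiation most of these genes are known to be turned down.

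Of the 9 genes, 8 were lower in CDAHFD than in ND libraries as deposited, by 10.9% to 55.6% of the ND mean. Tcf7 did not pass the test. Measured against T cell identity genes, 6 were lower and 2 higher, beside 5.53% lower and 55.9% higher among all genes tested. Dapl1, Id3 and Rapgef4 fell most, Lef1, Foxo1 and Satb1 fell by 23.7% to 24.8%, and Bach2 and Igfbp4 fell least. All these values are the authors' normalised counts, which are reads per gene divided by 1 factor per library. A gene is said to have risen or fallen where its adjusted p in a limma fit across 15819 genes was under 0.05. Of those genes 47.1% were called, made up of 22.5% lower and 24.6% higher in CDAHFD, so a call on its own was common. On the deposited scale none of the 9 genes was called higher by limma, and 0 were higher at an unadjusted p under 0.05. With edgeR or DESeq2, 0 were called higher. The median log2 difference of the 9 genes was -0.39, beside -0.01 over all genes tested.

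**Figure D1:**
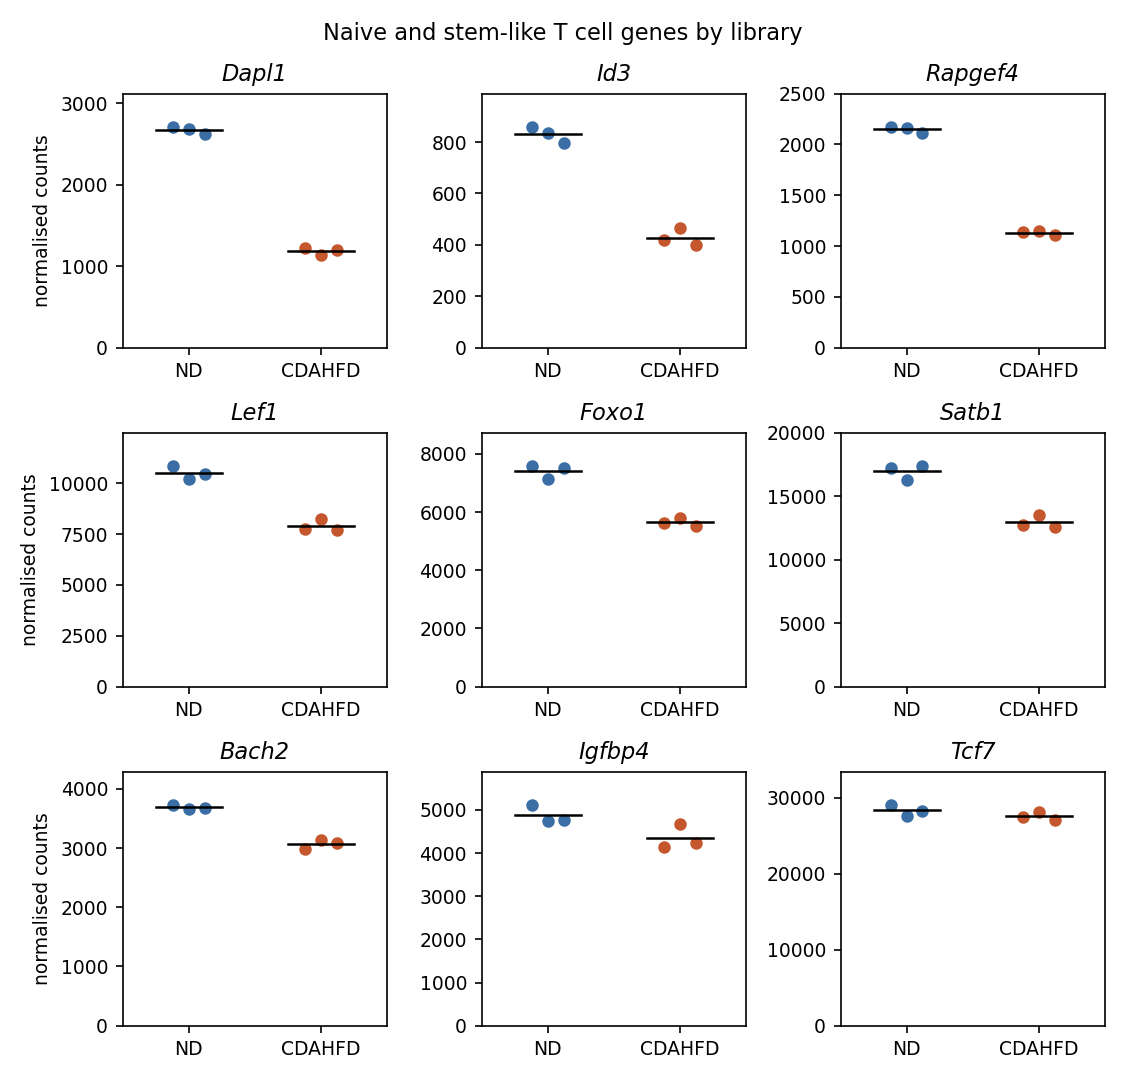
Normalised counts of the 9 genes (y axes from 0) in the 3 ND (blue) and 3 CDAHFD (orange) libraries, 1 point per library, with the group mean as a bar. The diets do not overlap for 8 genes, and overlap for Tcf7.

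Among the transcription factor genes, Tcf7 was the one whose diets overlapped. It had 29091, 27609 and 28289 normalised counts in the ND libraries and 27510.5, 28152 and 27131 in the CDAHFD libraries. The second CDAHFD library lay above the second ND library, and the log2 difference was -0.04 (SE 0.04, 95% interval -0.11 to 0.04, limma adjusted p = 0.432), an interval that reaches from 0.924-fold to 1.03-fold. Its relative Lef1 had 10858, 10195 and 10463 normalised counts on ND, against 7737, 8256 and 7712 on CDAHFD. All 3 CDAHFD values lay under all 3 ND values, and the log2 difference was -0.41 (SE 0.04, limma adjusted p = 1.23e-09). The Tcf7 to Lef1 ratio of normalised counts therefore shifted, from 2.70 ± 0.0157 to 3.49 ± 0.0758 (SD, n = 3 libraries per diet, exact two-sided permutation p = 0.1, the smallest that 20 regroupings allow).

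Foxo1, the forkhead factor that maintains the interleukin 7 receptor in naive cells, fell by nearly the same amount as Lef1. Its normalised counts were 7598, 7146 and 7508 on ND and 5629, 5789 and 5517 on CDAHFD, without overlap (log2 difference -0.39, SE 0.04, limma adjusted p = 2.37e-09). Satb1 had 17247, 16256 and 17420.3 normalised counts in ND libraries and 12774, 13515 and 12546 in CDAHFD libraries. Again the diets were apart, and the log2 difference was -0.39 (SE 0.04, limma adjusted p = 3.13e-09). The 95% intervals of Lef1 (-0.49 to -0.33), Foxo1 (-0.48 to -0.31) and Satb1 (-0.47 to -0.31) overlapped, and differences between these genes were not tested.

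Bach2, which competes with AP-1 factors at effector genes, fell less as deposited, and was not called against the identity genes. The ND libraries held 3734, 3665 and 3685 normalised counts and the CDAHFD libraries 2991, 3143 and 3079, with no overlap and a spread in ND of 0.963% of the mean (log2 difference -0.27, SE 0.04, limma adjusted p = 4.11e-06). Id3 was the transcriptional regulator with the largest fall. It went from 860.1, 836 and 795 normalised counts on ND to 419, 467 and 399 on CDAHFD, a loss of 48.4% (log2 difference -0.96, SE 0.07, limma adjusted p = 6.29e-12). Id3 also had the fewest reads of the 9, with 396 to 843 per library, and varied most between CDAHFD libraries (8.18% of the mean).

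Dapl1, a marker of naive CD8+ T cells, had the largest change of the 9. Its normalised counts were 2715, 2683 and 2627 in ND libraries and 1228, 1141 and 1194 in CDAHFD libraries, so the highest CDAHFD value was far under the lowest ND value. The log2 difference was -1.17 (SE 0.05, limma adjusted p = 4.14e-18), and 193 of the 15819 genes tested had a lower one. Rapgef4, which encodes EPAC2, a cyclic AMP-activated exchange factor for the adhesion switch RAP1, had 2175, 2159 and 2111 normalised counts on ND and 1133, 1147 and 1113 on CDAHFD. The libraries of a diet lay close together, at 2148 ± 33.2 and 1131 ± 17 (SD, n = 3), and the fall of 47.3% (log2 difference -0.92, SE 0.05, limma adjusted p = 1.29e-15) was close to that of Id3. Igfbp4, a secreted carrier of insulin-like growth factors, moved least among the 8 genes called, and changed sign against the identity genes. Its values were 5124, 4748 and 4778 normalised counts on ND and 4133, 4680.4 and 4245 on CDAHFD. CDAHFD replicate 2 came close to the lowest ND library, though the diets did not overlap (log2 difference -0.17, SE 0.05, limma adjusted p = 0.00400), and in a limma fit without trend and robust estimation the call was lost (adjusted p = 0.103).

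**Figure D2:**
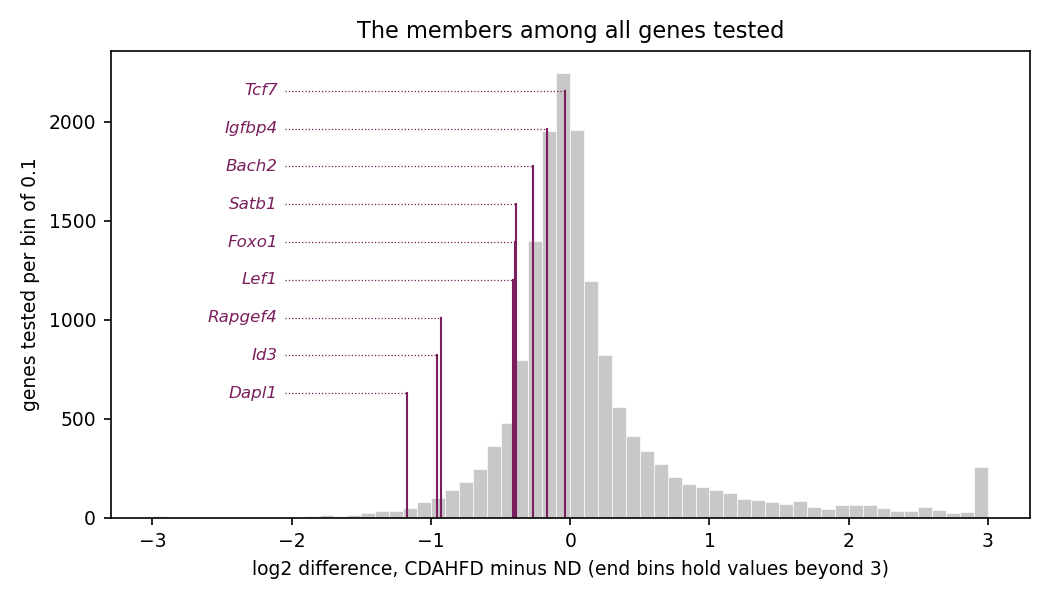
Log2 differences of all 15819 genes tested (grey bars, genes per bin of 0.1, with values beyond 3 in the end bins) and of the 9 genes (purple lines with names). On this deposited scale Tcf7 sits near 0 at -0.04 and Dapl1 in the lower tail at -1.17.

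Set against all genes tested, Dapl1 ranked at the lowest 1.23%, Id3 at 2.19% and Rapgef4 at 2.34% of log2 differences. Lef1, Foxo1 and Satb1 ranked at 11.2%, 11.8% and 11.9%. Bach2 stood at 19.2%, Igfbp4 at 28.9% and Tcf7 at 46.8%. For 8 of the 9 genes all CDAHFD values lay under all ND values, which was so for 26.5% of all genes tested, while 54.3% did not overlap in either direction. Within the diets, ND replicate 1 was the highest ND library for 8 of the 9 genes, all but Satb1, and CDAHFD replicate 2 the highest CDAHFD library for 8, all but Dapl1.

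How far these falls went beyond those of T cell genes in general was measured by scaling each library to the mean log2 level of 17 genes of CD8+ T cell identity, such as Cd8a, Cd3e and Lck. Of these 17 genes 14 fell, 1 rose and 2 did not pass the test, with log2 differences from -0.48 to 0.10 and a median of -0.30. Dapl1, Id3 and Rapgef4 lay under all 17 of them. Lef1, Foxo1 and Satb1 lay within their range, and 6 of the 17 had a lower value than Foxo1. In bulk RNA, fewer cells of a type and less of an RNA per cell cannot be told apart.

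After that scaling, 6 of the 9 genes were still lower and 2 were higher, beside 5.53% lower and 55.9% higher (61.4% called) among all genes tested (874 lower and 8840 higher, against 3563 and 3886 as deposited). The scaling moved the median of all genes by 0.28 on the log2 scale. Dapl1 in CDAHFD libraries came to 55.5%, 50.9% and 54.9% of its ND mean (log2 difference -0.90, limma adjusted p = 1.80e-16). Rapgef4 came to 63.9%, 63.6% and 63.7% (-0.65, limma adjusted p = 6.80e-13), and Id3 to 61.1%, 67.1% and 59.2% (-0.68, limma adjusted p = 9.57e-10). These 3 were the lowest of the 9 on both scales.

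The other 6 genes were nearer to the identity genes. Lef1 stood at 89.1%, 93.7% and 90.3% of its ND mean (log2 difference -0.14, limma adjusted p = 0.00549). Foxo1 and Satb1 had log2 differences of -0.12 each (limma adjusted p = 0.0169 and 0.0180). Bach2 was not called, at 97.9%, 101% and 102% of the ND mean (95% interval of the log2 difference -0.08 to 0.10, limma adjusted p = 0.887). Igfbp4 turned to 102%, 114% and 107% (log2 difference 0.11, limma adjusted p = 0.0435). Tcf7 was higher relative to the identity genes, at 117%, 118% and 118% of its ND mean (log2 difference 0.24, SE 0.04, limma adjusted p = 2.97e-06). The median log2 difference of all genes tested was 0.26 on this scale, so Tcf7 lay near the typical gene. Relative to T cell identity genes, the mean CDAHFD level thus ran from 53.8% of ND for Dapl1 to 118% for Tcf7.

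**Figure D3:**
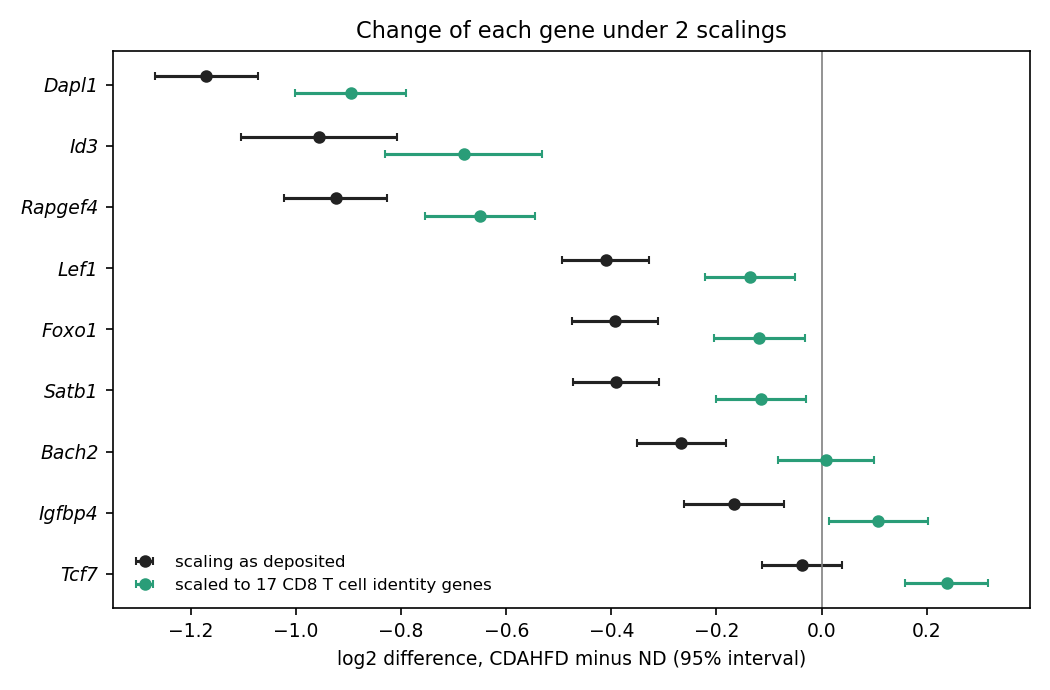
Log2 difference between CDAHFD and ND for each gene with its 95% interval, as deposited (black) and with libraries scaled to 17 CD8+ T cell identity genes (green). Dapl1, Id3 and Rapgef4 stay far under 0 in both, while Bach2, Igfbp4 and Tcf7 lie at 0.0084, 0.11 and 0.24 in the second.

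Levels of different genes were compared as normalised counts per kilobase of annotated exon, which depends on how completely the exons are annotated. On this scale Tcf7 stood first on both diets, at 10792 ± 283 on ND and 10513 ± 196 on CDAHFD (SD, n = 3). Dapl1, whose annotated exons span only 679 bases, came next, at 3939 ± 65.6 on ND and 1749 ± 64.1 on CDAHFD. Its distance from Lef1 narrowed, with Lef1 at 1195 ± 38 on ND and 899 ± 35 on CDAHFD. Igfbp4 (1106 ± 47.3 and 986 ± 65.5) could not be set apart from Lef1 on either diet, nor Satb1 (892 ± 33 and 680.3 ± 26.6) from Foxo1 (856 ± 27.6 and 652 ± 15.8). Toward the bottom, Id3 (464 ± 18.4) lay above Bach2 (372 ± 3.58) on ND and under it on CDAHFD (239 ± 19.6 against 309 ± 7.69). Rapgef4 was lowest on both, at 322 ± 4.97 and 169 ± 2.54 per kilobase.

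The genes lie on 5 chromosomes of mm10. Dapl1 (ENSMUSG00000026989, chr2:59484653-59505020) and Rapgef4 (ENSMUSG00000049044, chr2:71981240-72257474) share chromosome 2. Lef1 (ENSMUSG00000027985, chr3:131110471-131224356) and Foxo1 (ENSMUSG00000044167, chr3:52268336-52353221) are on chromosome 3, Bach2 (ENSMUSG00000040270, chr4:32238804-32586108) and Id3 (ENSMUSG00000007872, chr4:136143497-136145755) on chromosome 4. Tcf7 (ENSMUSG00000000782, chr11:52252371-52283014) and Igfbp4 (ENSMUSG00000017493, chr11:99041244-99054392) are on chromosome 11, and Satb1 (ENSMUSG00000023927, chr17:51736187-51833290) is on chromosome 17. Lef1, Bach2, Foxo1, Satb1 and Rapgef4 share exon bases with other annotated genes, most of them antisense, and without a stated strand setting the reads of such genes cannot be told apart. The overlapping genes were low: the highest, Gm6934 against Satb1, averaged 139.7 normalised counts on ND and 80.2 on CDAHFD.

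Since several of the 9 genes encode DNA-binding proteins, the upstream sequences of all 9 were searched on both strands for 3 short motifs of those proteins. RefSeq promoters of build GRCm38.p6 (the same assembly as mm10) gave 17 windows of 250 bases before a transcription start. The TCF/LEF core CTTTGA occurs in 13.8% of all 32851 such windows, the FOXO core GTAAACA in 3.17% and the AP-1 type site TGAGTCA, which BACH2 also binds, in 4.46%. No matches of different motifs overlapped, and a match describes the sequence, not a bound site. The windows are shown for Dapl1, the gene that fell most and that holds a FOXO core 164 bases before its start, for Bach2, whose RefSeq start lies inside the annotated gene and which holds a TCF/LEF core on the opposite strand 93 bases before it, and for Rapgef4, which fell by 47.3% and holds none of the 3. Capitals mark the motif, and each window is printed 5′ to 3′ on the strand of its gene, which is the plus strand for all 3.
Dapl1, chr2:59484403-59484652: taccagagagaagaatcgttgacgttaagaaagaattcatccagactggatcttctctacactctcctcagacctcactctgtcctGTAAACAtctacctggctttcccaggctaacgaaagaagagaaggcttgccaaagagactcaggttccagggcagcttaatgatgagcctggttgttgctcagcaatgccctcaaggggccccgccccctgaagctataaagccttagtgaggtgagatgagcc
Bach2, chr4:32417185-32417434: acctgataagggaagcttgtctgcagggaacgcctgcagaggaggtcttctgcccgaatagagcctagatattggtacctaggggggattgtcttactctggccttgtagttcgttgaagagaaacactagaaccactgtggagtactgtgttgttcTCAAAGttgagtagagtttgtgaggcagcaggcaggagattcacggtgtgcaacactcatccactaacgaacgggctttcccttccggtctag
Rapgef4, chr2:71980965-71981214: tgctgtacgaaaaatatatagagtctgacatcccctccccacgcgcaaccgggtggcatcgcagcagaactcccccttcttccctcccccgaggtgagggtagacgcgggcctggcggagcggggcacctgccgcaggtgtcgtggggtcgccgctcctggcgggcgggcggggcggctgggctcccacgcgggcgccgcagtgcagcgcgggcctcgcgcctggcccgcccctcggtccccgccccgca
Of the 17 windows, 3 held a motif. The other is the window of an internal Lef1 start (chr3:131156044-131156293), with TCF/LEF cores on the opposite strand 180 and 120 bases before that start, in the surroundings aaatacatggTCAAAGgaaaataggt and ttgtctgttcTCAAAGtcaggtcttg. Tcf7, Id3, Foxo1, Satb1 and Igfbp4 had none of these letters in their windows. The Id3 window (chr4:136143572-136143821) lies inside the annotated gene. All its 250 bases are in annotated exons, as in some Lef1 and most Satb1 windows. In such windows the search covered exon sequence.

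Factors that oppose the naive regulators in textbook accounts were higher in CDAHFD libraries on both scales. Tbx21 encodes T-bet, which drives effector genes and whose balance with TCF1 is used to order effector and memory states. It went from 689 ± 46.7 to 1226 ± 26.7 normalised counts (log2 difference 0.83, SE 0.06, limma adjusted p = 3.03e-12). The Tcf7 to Tbx21 ratio was 38.4 to 44.5 in ND libraries and 21.6 to 23.1 in CDAHFD libraries. Id2, the effector counterpart of Id3, rose from 3119.7 ± 85.1 to 4904 ± 223 (log2 difference 0.65, SE 0.04), and the Id3 to Id2 ratio went from 0.266 ± 0.00850 to 0.0875 ± 0.00947. Prdm1, which encodes BLIMP1 and is a gene that BACH2 represses, rose from 118 ± 15.5 to 531 ± 19.9 (log2 difference 2.17, SE 0.11), and the Bach2 to Prdm1 ratio went from 31.6 ± 3.99 to 5.78 ± 0.151. In each of these ratios and in that of Tcf7 to Lef1 the diets did not overlap. Each gave an exact two-sided permutation p of 0.1 and, adjusted over the 4 ratios, 0.1, which is the smallest value 3 against 3 libraries can give. A ratio within a library does not depend on the scaling.

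**Figure D4:**
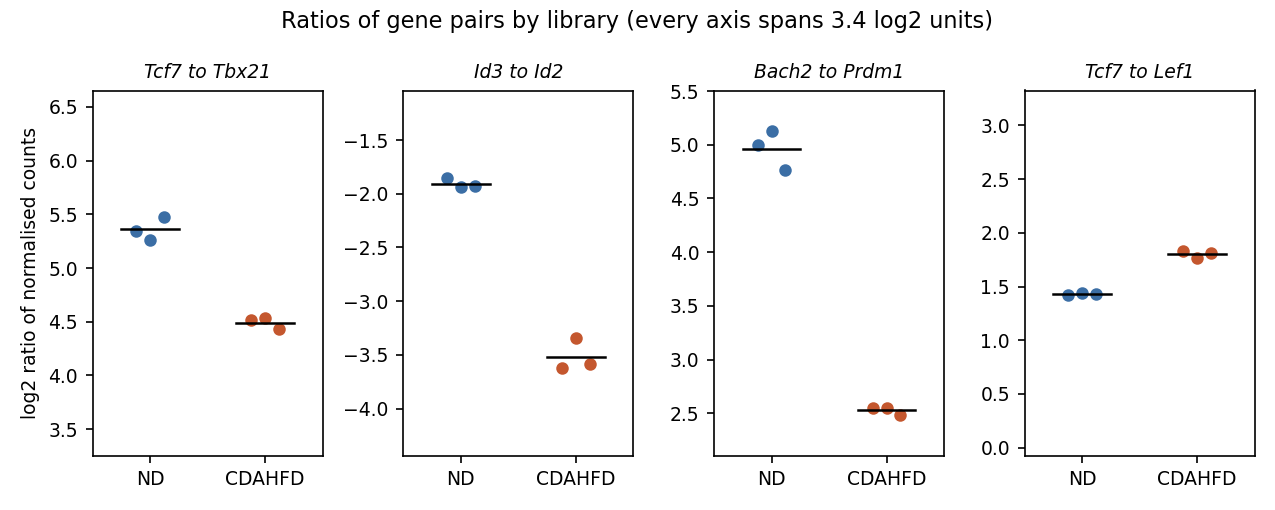
Log2 ratio of normalised counts for 4 gene pairs in each library, ND in blue and CDAHFD in orange, with group means as bars and all axes spanning the same 3.4 log2 units. The Bach2 to Prdm1 ratio drops most, by 2.43, and the Tcf7 to Lef1 ratio goes up by 0.37.

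Prdm1, Zeb2 and Bhlhe40 are also known from macrophages or plasma cells, and Id2, Tbx21 and Zeb2 from NK cells. All 13 macrophage markers rose (log2 differences 0.18 to 5.35), their summed level going from 16341 to 18246 normalised counts in ND libraries to 127082 to 139568 in CDAHFD libraries. Of 6 plasma cell markers tested 4 rose (sum over the 7 listed 31739 to 32316 on ND, 39272 to 41853 on CDAHFD). Most of that sum was Ighm, not called as deposited (means 29256 on ND, 30001 on CDAHFD), while Jchain rose from 1095 to 7615. Of 7 erythroid markers 7 rose (sum 875 to 915 on ND, 8614 to 8873 on CDAHFD). B cells also express Bach2, Foxo1 and Id3. Of 11 B cell markers 9 fell and 2 rose (5 and 2 against the identity genes), with a median of -0.31, and their sum went from 28284 to 29606 on ND to 23492 to 24795 on CDAHFD. Of 9 dendritic cell markers, Ccr9 among them, 6 fell and 3 were not called (6 lower and 3 higher against the identity genes; sum 14442 to 15119 on ND, 10682 to 11446 on CDAHFD). No marker of these 5 lists was at 0 in any library. Among defining genes of lymphocytes, picked from the marker lists with values known, Cd4 was at 478 to 708 and the NK receptor gene Ncr1 at 24.3 to 66 normalised counts, while Cd8a was at 27699 to 32995. Of 7 NK cell markers 3 rose and 1 fell (sum 2357 to 2429 on ND, 6468 to 6618 on CDAHFD), and some genes of that list are also expressed by myeloid cells. Of 7 markers of CD4 helper and regulatory T cells 4 rose and 2 fell (sum 2718 to 2955 on ND, 2841 to 2929.7 on CDAHFD). Of 8 neutrophil markers 6 rose (sum 3022 to 3064 on ND, 7037 to 8166 on CDAHFD). Of 6 endothelial and stromal markers tested 2 rose and 1 fell (sum over the 8 listed 4921 to 5062 on ND, 7680 to 7983 on CDAHFD), and Dcn was at 0 in 3 libraries. Of these, Stab2, singled out with values known and a marker of sinusoidal endothelium, had a log2 difference of 3.19. The other endothelial markers of the list differed: Pecam1 rose by 0.23, Kdr fell by 1.89 and Cdh5 was not called (-0.53). The part of these cells in the changes of the 9 genes was not tested.

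Other genes of the naive and central memory state mostly fell on the deposited scale. Of 23 such genes, all tested, 18 fell and 3 rose (median -0.21), and after scaling to the identity genes 6 were lower, 7 higher and 10 not called. Myb, a factor of stem-like memory cells, fell from 1789.9 ± 139.7 to 766 ± 35.2 normalised counts (log2 difference -1.22, limma adjusted p = 3.21e-16) and stayed lower after scaling (-0.95). The gut homing receptor gene Ccr9 fell from 4104 ± 7.52 to 2336 ± 36.9, and at -0.54 after scaling it was lower as well. Il7r rose from 14683 ± 344 to 28806 ± 850.3 (log2 difference 0.97, SE 0.04). Il7r is known to depend on FOXO1 in T cells, as are Ccr7, S1pr1 and Klf2, which were chosen after their values were seen. Unlike Il7r, Ccr7 fell by 0.28, S1pr1 by 0.21 and Klf2 by 0.17 on the log2 scale. Relative to the identity genes Il7r was higher (1.25), while Ccr7, S1pr1 and Klf2 were not called (adjusted p = 0.988, 0.178 and 0.0595).

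Cofactors and relatives of the 9 genes were less uniform. Against the identity genes 55.9% of all genes tested were higher. Counts of higher genes on that scale are to be read beside this share. Of 21 TCF/LEF partner and Wnt genes tested, 4 rose and 8 fell (median -0.01), and against the identity genes 14 were higher and 1 lower. Ctnnb1, the coactivator beta-catenin, had 6299 ± 129.6 and 6235 ± 166 normalised counts on ND and CDAHFD (limma adjusted p = 0.789; against the identity genes it was higher by 0.26; it was named once values were known). Tcf7l2, another TCF family member, rose from 142 ± 21.3 to 725 ± 47.5 (log2 difference 2.35, SE 0.10), the Wnt coreceptor gene Lrp5 from 521 ± 26.5 to 1415 ± 147 and the corepressor gene Tle1 from 527 ± 37.6 to 965 ± 10.5. Of 13 genes of the FOXO family and its kinases, 2 rose and 3 fell (median 0.0011), and against the identity genes 12 were higher and 1 was not called. Pik3r1, a regulatory subunit of the kinase upstream of FOXO1, rose from 6660.2 ± 109 to 9302 ± 197. Foxp1, a quiescence factor, fell from 7443 ± 222 to 6602 ± 91.2 and Foxo4 from 1236 ± 47 to 1039.5 ± 89.1, but relative to the identity genes Foxp1 was higher (0.10) and Foxo4 was not called (0.023, adjusted p = 0.779).

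Tcf3 and Tcf12, genes of E proteins that ID3 holds back, fell as deposited. Tcf3, which encodes E2A, went from 4518 ± 147 to 3395 ± 175 normalised counts (log2 difference -0.41, limma adjusted p = 6.88e-09) and Tcf12, which encodes HEB, from 5033 ± 199 to 4019 ± 197 (-0.33, limma adjusted p = 4.52e-07). After scaling Tcf3 was lower by 0.14 and Tcf12 was not called (adjusted p = 0.372). In all, 2 of the 6 ID and E protein genes rose and 3 fell, or 3 and 1 against the identity genes. Around BACH2, 4 of 7 genes rose (median 0.26), or 6 of 7 against the identity genes (beside 55.9% of all genes tested). These included Hmox1, haem oxygenase and a target of BACH factors that macrophages express strongly, from 2578 ± 57.3 to 15135 ± 855 normalised counts, Blvrb from 335 ± 26.4 to 1182 ± 79.5 and the small MAF gene Mafg from 583 ± 35.7 to 916 ± 46.5.

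Around Rapgef4, 6 of 15 RAP1 activation genes rose and 2 fell (median 0.0024). Against the identity genes 12 were higher and 3 not called, beside 55.9% higher among all genes tested. The calls depended on single libraries: without ND replicate 2 there were 3 in all, and 5 without ND replicate 3 or CDAHFD replicate 2. The RAP1 inhibitor gene Rap1gap2 rose from 626 ± 41.5 to 1315 ± 93.6 normalised counts (log2 difference 1.07, SE 0.06). Another exchange factor gene, Rapgef6, rose from 15223 ± 368 to 16998 ± 218, and Stk4, which encodes the kinase MST1, fell from 17888 ± 114 to 14509 ± 433, a call lost against the identity genes (adjusted p = 0.586). In the insulin-like growth factor system of Igfbp4, 5 of 11 listed genes were tested, of which 4 rose on either scale. Igf1 went from 239.6 ± 8.48 to 1819 ± 89.5, its receptor gene Igf1r from 614 ± 19 to 1171 ± 24.1 and Insr from 1531 ± 34 to 1881 ± 73.2. Igf1 is a known macrophage product.

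**Figure D5:**
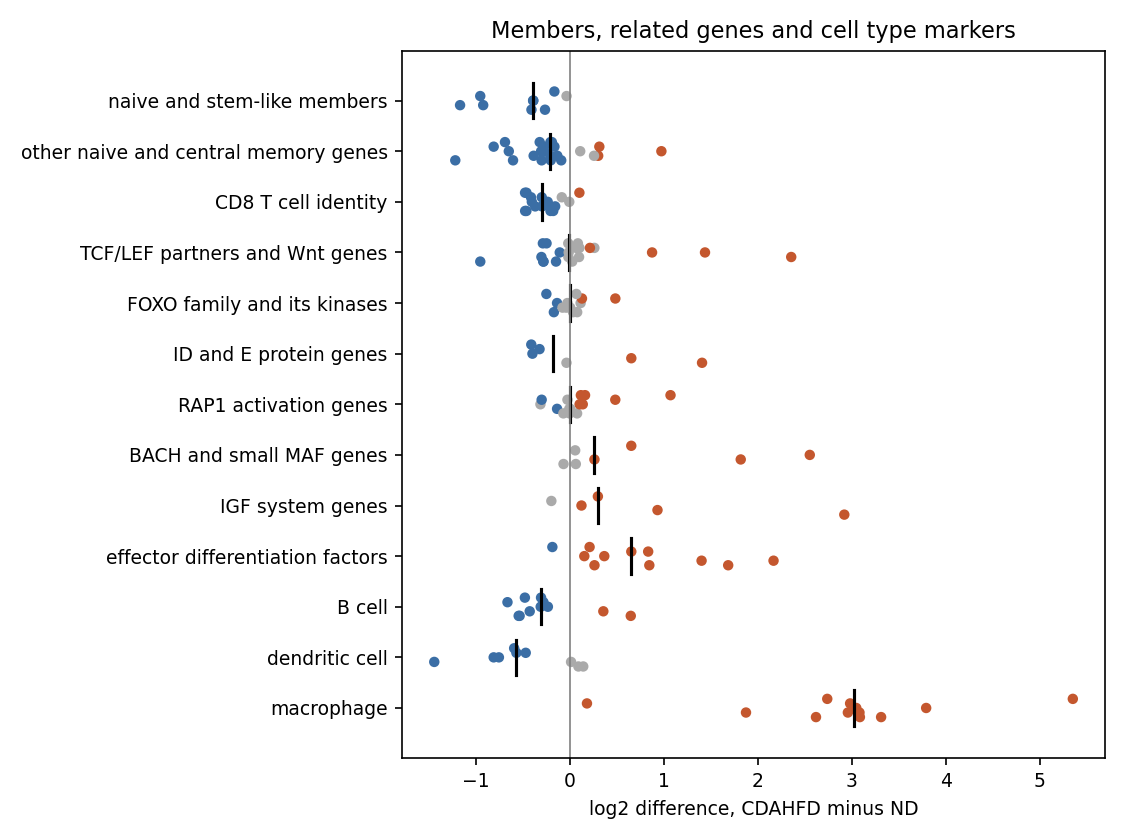
Log2 difference between CDAHFD and ND of each tested gene (points, orange higher, blue lower, grey not called) in 13 lists, with list medians as black bars. On the deposited scale the naive and stem-like genes have a median of -0.39, the CD8+ T cell identity genes of -0.30, the effector factors of 0.65 and the macrophage markers of 3.02.

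Effector differentiation factors were mostly higher. Of 11 tested, 10 rose and 1 fell, with a median of 0.65. Zeb2, a repressor that works with T-bet in terminal effector cells, rose from 506 ± 42.2 to 1624 ± 69 normalised counts (log2 difference 1.68, SE 0.06), and Bhlhe40, a factor of activated and resident T cells, from 286 ± 33.1 to 754 ± 14.3. The exception was Irf4, singled out with values known. It was at 904 ± 5.57 on ND and 793 ± 11.4 on CDAHFD (log2 difference -0.19) and was not called relative to the identity genes (adjusted p = 0.237).

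Some genes were left out of the search for profiles most like the average of the 9 genes over the 6 libraries. These were the 9 genes themselves, antigen receptor genes and IDs without a symbol. Symbols that start with Gm and a digit, or end in Rik or -ps, were left out too. By the smallest root mean square difference of centred log2 values, the nearest were Orai2 (0.0198), Hes6 (0.0268), Dennd2d (0.0276), Map4k4 (0.0286) and Cd5 (0.0260). Orai2 encodes a store-operated calcium channel subunit and went from 8396 ± 243 to 5768 ± 256 normalised counts. Cd5, the inhibitory coreceptor, went from 4975 ± 146 to 3571 ± 99.5 and is one of the 17 identity genes. The measure takes in the difference between the diets as well as that between libraries, so genes with a fall of similar size score well.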

How the data were processed

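RNA of 6 libraries of splenic CD8+ T cells was sequenced. In the 6 columns of the table that the authors deposited, the signal is a gene's reads over a library-wide factor. Build mm10 is per the submitters' processing notes; the aligner, counter and strand setting are not named in any source used here. Columns spelled CDHFD were matched to the CDAHFD samples. In each column 100% of values were whole multiples of 1 step (tolerance 0.001), so reads were recovered.

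Symbols matched 26147 of 26181 IDs, and exon lengths and positions came from GENCODE M21. Limma 3.58.1 (trend and robust estimation, R 4.3.3) was run on log2(normalised count + 1) for 15819 genes whose mean reached 10 normalised counts. Diet was the only term, and p-values were adjusted over all these genes (Benjamini-Hochberg). Log2 differences are on that scale. The fit was tested on simulated data. Between replicates of a diet, chi-square over its degrees of freedom was 2.72 to 5.70, above read sampling.

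The alternatives were other pseudocounts (0.5, 5), filters (none, 50) and scalings (equal totals, TMM, CD8+ T cell identity genes), limma without trend and robust estimation, edgeR 4.0.16 and DESeq2 1.42.0 on recovered reads, a replicate block and each library left out. The genes and lists were chosen with earlier results of these data known. Named were the 9 genes, the genes of the ratios and up to 3 called genes per related list with the smallest adjusted p. The 5 genes with the most similar profile, after the exclusions given with them, were named too. Other genes were chosen with values known, as the text says, or illustrate a marker list. No column was left out. One gene of the naive and central memory list is not reported here by name, Igfbp2 and Pappa were not analysed here, and Tle5 was matched as Aes.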

Additional observations from a re-analysis of the deposited data

How the results depend on the processing

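Of the 9 genes, 8 were called lower as reported and under both pseudocounts, both filters, equal totals, TMM scaling, edgeR, DESeq2 and each left-out library; limma without trend and robust estimation called 7, losing Igfbp4 (-0.17, adjusted p = 0.103). Leaving out a library moved Dapl1 between -1.20 and -1.14 and Igfbp4 between -0.22 and -0.13 (adjusted p 3.95e-04 to 0.0448). Scaling to the CD8+ T cell identity genes gave 6 lower and 2 higher, beside 5.53% lower and 55.9% higher among all genes tested. This scaling turned Tcf7 to 0.24, Igfbp4 to 0.11, Bach2 to 0.0084, Foxp1 to 0.10 and Foxo4 to 0.023. Tcf12 and Stk4 lost their calls with this scaling. Under it 13 other naive and central memory genes were called (21 as deposited) and 12 genes of the FOXO family and its kinases (5 as deposited). Without trend and robust estimation the FOXO list had 3 calls and the RAP1 list 4 (8 as reported). The RAP1 count ranged from 3 (without ND replicate 2) to 6 with a library left out, and was 5 without ND replicate 3 or CDAHFD replicate 2. The cause was not tested. The 4 ratios moved by less than the spread between replicates under every alternative run for them.

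With the replicate block 8 genes were called lower, and 7250 of all genes against 7449 without it. Same-numbered libraries share only a number: their deviations from the group means correlated at 0.041, -0.051 and 0.062, and ND replicate 2 correlated best with CDAHFD replicate 1. Depth did not limit the 9 genes, the least of which had 396 reads in a library.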
